A study of Mus musculus with 4 samples.

Results

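Microtubules are hollow polymers of alpha- and beta-tubulin, and the genes described here encode their subunits, the motors that walk along them and several proteins that bind or sequester them. The members were taken from the symbols of the deposited gene count table: tubulins of the alpha, beta and gamma families, cytoplasmic dynein chains, kinesins, microtubule-associated proteins (MAPs), stathmins and the TPPP family. Tubb3 and 6 mitotic kinesins (Kif2c, Kif4, Kif11, Kif20a, Kif22 and Kif23) were left out by the same rule. This gave 75 of the 22608 genes in the table, of which 63 had enough reads to be tested.

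Polyadenylated RNA was sequenced from neural stem cells (NSCs) of the embryonic cerebral cortex of CD-1 mice. Every culture was grown with EGF and FGF (20 ng/ml each), infected with a hairpin-expressing lentivirus, freed of uninfected cells by puromycin and driven toward oligodendrocyte precursor cells (OPCs) over 3 days in medium with CNTF (20 ng/ml) and T3 (40 ng/ml), a cytokine and a thyroid hormone. The 2 control libraries expressed a hairpin against luciferase, and the 2 knockdown libraries expressed 1 against the long non-coding RNA lnc-OPC. The sample titles number the libraries of each group as repeats. The cells were purchased, and whether the repeats stem from separate animals is not known. The p-values measure the spread between these libraries and not a known spread between animals. Each group had 1 hairpin, so an effect of the hairpin itself and an effect of losing lnc-OPC cannot be told apart, and the level of lnc-OPC was not analysed here.

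Alpha- and beta-tubulin come from several genes whose products, the isotypes, differ mainly in their acidic C-terminal tails, where many motors and MAPs make contact and where most tubulin modifications are placed. Dynein carries cargo toward the minus end of a microtubule and most kinesins toward the plus end. MAPs stabilise the lattice and stathmins bind free tubulin. In oligodendrocytes this system carries myelin mRNA and membrane into long processes. The beta-tubulin Tubb4a is abundant in that lineage, and variants of its human counterpart cause leukodystrophies with too little myelin.

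Reads counted in genes ranged from 46144779 to 50098577 per library, and the members took 1.28% to 1.36% of them. The 5 oligodendrocyte markers examined (Mbp, Cnp, Mog, Mag and Mobp) were all called lower in the knockdown, and their summed level was 665 to 712 CPM in the control and 499 to 509.6 CPM in the knockdown. Cnp held most of that sum and was 1.19-fold lower, whereas Mbp, Mag, Mobp and Mog were 4.52-fold, 6.001-fold, 7.92-fold and 11.2-fold lower. The 8 OPC markers summed to 4133 and 4144 CPM in the control and 3457 and 3275 CPM in the knockdown, with 6 of them called lower (Pdgfra, Olig1, Olig2, Sox10, Gpr17 and Nkx2-2). Of these, Gpr17 was not called without control replicate 1 or 2 (adjusted p up to 0.0993). The OPC markers Cspg4 and Ptprz1 were not called. Cspg4 was 38.8 and 40.4 CPM in the control and 43.7 and 42.2 CPM in the knockdown. Ptprz1 was 1693 CPM in both controls and 1720 and 1603 CPM in the knockdown. The summed level of 8 astrocyte markers was 4337 to 4395 CPM in the control and 6745 to 6876 CPM in the knockdown. Of these, Gfap, Gja1, Slc1a2, Slc1a3 and Aldoc were called higher and Aqp4 and S100b lower. CPM are reads relative to library size after TMM scaling. The samples are mixed cultures, in which fewer cells of a type and less RNA per cell cannot be told apart.

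Of the 63 tested members, 22 were higher in the knockdown and 11 were lower at an adjusted p under 0.05 (edgeR quasi-likelihood test, Benjamini-Hochberg over all 14090 genes tested). Over all genes, 23.5% were called higher and 23.3% lower, against 34.9% and 17.5% of the tested members. Most of these differences were small. The median log2 change of the members was 0.04, beside 0.00 for all genes, and the median size of the change was 0.15 on the log2 scale, beside 0.17. When the test asked for a change beyond 1.2-fold, 7 members were higher, Stmn2 among them, and 6 lower. A change of at least 1.5-fold was called for 5 higher members (Tubb6, Dynlt3, Kif3b, Stmn2 and Tppp3) and 5 lower ones (Tubb4, Kif19a, Kif21b, Kif26a and Kif26b), where 3.64% and 5.05% of all genes passed those rules. Stmn2 reached the count minimum in the knockdown libraries and not in the controls, so it entered the test through the group where it was high. Without it 21 members were higher, 4 of them by at least 1.5-fold, and 4 members were changed over 2-fold. Changes over 2-fold were called for 5 members, beside 3.82% of all genes, and the count was 3 without control replicate 1. Both knockdown libraries lay above both controls for 26 members and below them for 21, and over all genes the shares were 36.4% and 36.2%.

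**Figure D1:**
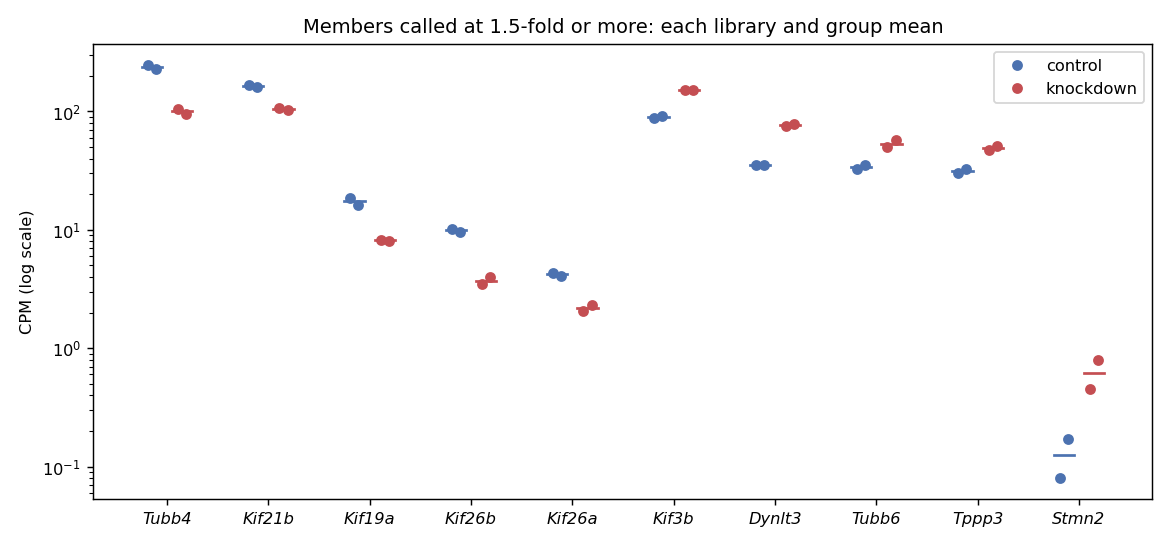
Level of each member called at 1.5-fold or more in each of the 4 libraries (CPM, log scale, points) with the mean of each group (bars, n = 2). The 10 genes were chosen by their calls in these same libraries, so the lack of overlap between their groups is no separate result. Over all genes, both knockdown libraries lay above both controls for 36.4% and below them for 36.2%. Stmn2, at 0.0797 and 0.171 CPM in the control, lies far below the others, and its call is given no weight.

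The direction of the calls varied with role, where over all genes 23.5% were higher and 23.3% lower. Of 13 tested tubulins, 10 were higher (76.9%) and 1 was lower (7.69%). Of 14 dynein genes, 6 were higher (42.9%) and 1 lower (7.14%). Of 29 kinesins, 4 were higher (13.8%) and 8 lower (27.6%). Among the 4 stathmins 1 was higher and 1 lower. The higher one was Stmn2, whose call is given no weight. The lower one was Stmn1, whose call was lost whichever library was left out. Of the 2 TPPP genes 1 was higher, and Mapt was not called. The differences between these groups were not tested. Several of these calls did not hold with a library left out, as given for each gene below. Several tubulin and light chain genes share long stretches with other genes. Among the 53 tested members with under 20% of their longest transcript's 50-base words in another gene's transcripts, 14 were higher and 10 lower. These shares of 26.4% and 18.9% stand beside 23.5% and 23.3% of all genes. Stmn2 was among the 14 higher.

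**Figure D2:**
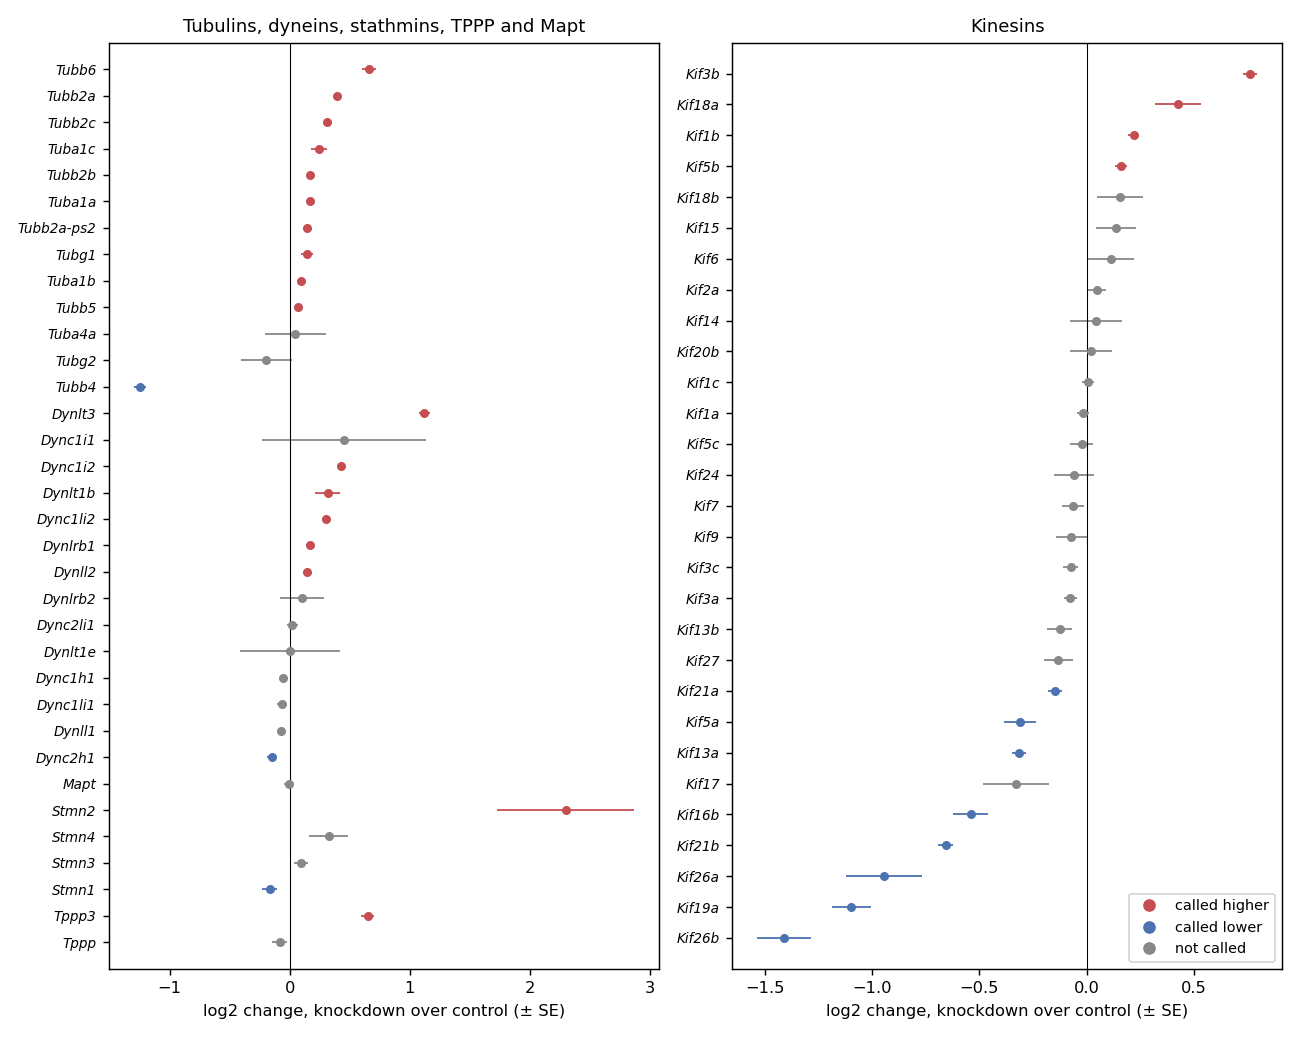
Log2 change of every tested member, knockdown over control, with its standard error (edgeR, n = 2 per group). Tubulins (left) lie mostly to the right of zero apart from Tubb4 at -1.25, and kinesins (right) spread from -1.41 for Kif26b to 0.76 for Kif3b.

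Beta-tubulins held the sharpest contrast among the tubulins, a fall of Tubb4 beside smaller rises of its tested relatives. These rises ran from 1.05-fold for Tubb5 to 1.58-fold for Tubb6. When the test asked for a change beyond 1.2-fold, only the rises of Tubb2a and Tubb6 were called. Tubb4 is the table's older symbol for Tubb4a and Tubb2c that for Tubb4b. The ends of beta-tubulin coding sequences are shown because isotypes differ mainly in the tail. A read can also be given to 1 gene only where the sequences differ. Each line gives the last 30 bases before the tail in lower case and the tail with its stop codon in capitals, 5′ to 3′, from the GENCODE M21 transcript.
Tubb4a: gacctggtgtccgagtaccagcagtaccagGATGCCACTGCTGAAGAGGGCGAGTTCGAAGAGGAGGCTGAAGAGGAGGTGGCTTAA
Tubb4b: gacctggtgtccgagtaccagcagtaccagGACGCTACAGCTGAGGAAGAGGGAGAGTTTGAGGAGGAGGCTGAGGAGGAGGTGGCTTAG
Tubb5: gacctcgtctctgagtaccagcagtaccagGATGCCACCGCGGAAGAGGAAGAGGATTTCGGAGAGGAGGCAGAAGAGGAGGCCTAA
Tubb2a: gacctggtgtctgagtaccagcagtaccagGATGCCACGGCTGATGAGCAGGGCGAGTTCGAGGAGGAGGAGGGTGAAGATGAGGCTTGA
Tubb2b: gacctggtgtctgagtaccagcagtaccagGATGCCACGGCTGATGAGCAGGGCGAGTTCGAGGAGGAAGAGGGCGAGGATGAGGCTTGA
All of these tails are rich in GAG and GAA codons for glutamate. The Tubb2a and Tubb2b tails differ in bases but encode the same amino acids, so the tail does not separate these isotypes. The Tubb4a and Tubb4b tails differ by 1 glutamate. Over the 1278 coding bases before the tail, Tubb4a and Tubb4b were identical at 83.3% of positions and Tubb2a and Tubb2b at 96.6%. Of the 50-base words of each gene's longest transcript, Tubb4 shared 0.184% with other genes, Tubb5 0.115% and Tubb6 0%. By contrast, Tubb2c shared 50.9%, Tubb2a 49.6% and Tubb2b 39.3%.

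Tubb4 stood at 249 and 226 CPM in the controls and at 105 and 95.7 CPM in the knockdown. Both knockdown libraries were below both controls by more than the spread within either group, a 2.37-fold decrease (log2 change -1.25, SE 0.05, edgeR adjusted p = 1.84e-09). Its fall went together with that of the oligodendrocyte markers and of the OPC markers called lower above. The OPC markers Cspg4 and Ptprz1 were not called. The part of cell makeup in the fall of Tubb4 was not tested.

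Tubb6, an isotype that is a minor component of brain tubulin, was 32.4 and 35.3 CPM in the control and 49.8 and 57.2 CPM in the knockdown. The groups did not overlap, and the rise was 1.58-fold (log2 change 0.66, SE 0.06, edgeR adjusted p = 5.29e-10). Tubb2a, a major brain isotype, rose from 422 and 431 CPM to 552 and 570 CPM, or 1.32-fold (edgeR adjusted p = 1.37e-13). Its close relative Tubb2b, mutated in malformations of the human cortex, was 912 and 942 CPM in the control and 1046 and 1042 CPM in the knockdown, 1.13-fold higher (edgeR adjusted p = 3.77e-06). The Tubb2a-ps2 row, which carries a pseudogene symbol, rose 1.11-fold, from 181 and 190 CPM to 212 and 199 CPM (edgeR adjusted p = 0.00039, and 0.0567 without control replicate 1). Because these 3 rows share long stretches with other genes, they were also summed. Reads with more than 1 alignment were not counted, so the sum does not recover them. The sum was 1515 and 1562 CPM in the control and 1809 and 1811 CPM in the knockdown, a ratio of 1.18. Tubb2c, a broadly expressed isotype also found in cilia, was 228 and 225 CPM in the control and 282 and 281 CPM in the knockdown. It was 1.24-fold higher (log2 change 0.31, SE 0.03, edgeR adjusted p = 8.57e-11), opposite in direction to Tubb4. Tubb5, the ubiquitous isotype, was 822 and 838 CPM in the control and 863 and 879 CPM in the knockdown. That difference was 1.05-fold (edgeR adjusted p = 0.0379) and lost its call whichever library was left out, with adjusted p-values from 0.0559 to 0.226.

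Per length, measured as reads per kilobase of exon, Tubb4 made up 8.75% and 7.84% of the reads of the 8 beta-tubulin rows described here, Tubb3 not among them, in the controls and 3.32% and 3.02% in the knockdown. Its mean share was 8.29% ± 0.637 in the control and 3.17% ± 0.210 in the knockdown (SD, n = 2), and the ranges did not overlap. With Tubb3 in the sum these means were 8.07% and 3.10%. Tubb2a made up 20.6% ± 0.0750 in the control and 24.5% ± 0.502 in the knockdown, and so took the largest part of the change. Tubb2b held the largest share in every library, 31.4% ± 0.376 in the control and 32.0% ± 0.129 in the knockdown. Tubb2c went from 8.44% ± 0.154 to 9.49% ± 0.0407, Tubb6 from 1.08% ± 0.0540 to 1.55% ± 0.148 and Tubb5 from 19.4% ± 0.0529 to 18.4% ± 0.206. In the control Tubb4 and Tubb2c had similar counted reads per length, and in the knockdown Tubb2c was higher in both libraries. Reads with more than 1 alignment were not counted. Tubb2c, Tubb2a and Tubb2b share 50.9%, 49.6% and 39.3% of their 50-base words with other genes, and Tubb4 shares 0.184%. Levels compared between these rows, and the shares drawn from them, are therefore uncertain. The summed level of the 8 beta-tubulin rows was 2846 and 2887 CPM in the control and 3109 and 3123 CPM in the knockdown, a ratio of 1.09, and without Tubb4 the ratio was 1.15. With Tubb3 added to the 8 rows it was 1.08. No test was made on shares or sums.

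**Figure D3:**
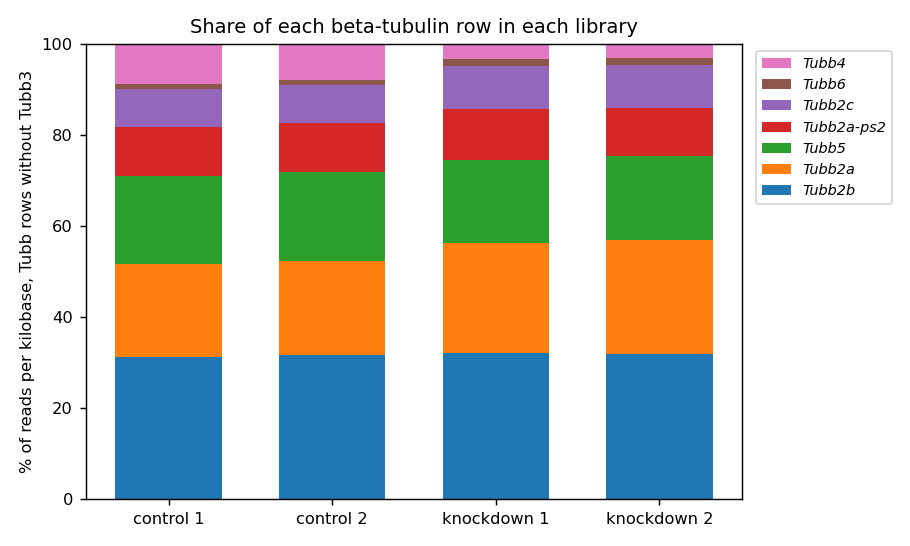
Share of each beta-tubulin row in the reads per kilobase of exon of the beta-tubulin rows without Tubb3 (%), 1 bar per library. The Tubb4 segment at the top shrinks from 8.75% and 7.84% in the control to 3.32% and 3.02% in the knockdown, and the Tubb2a segment grows from 20.5% and 20.6% to 24.2% and 24.9%.

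Of 4 tested alpha-tubulin rows, 3 were called higher, all by small amounts, and the isotype shares were close in both groups. Over all genes, 23.5% were called higher. Tuba1a, the main isotype of young neurons and other neural cells, was 3171 and 3279 CPM in the control and 3581 and 3678 CPM in the knockdown. It was 1.13-fold higher (log2 change 0.17, SE 0.03, edgeR adjusted p = 2.89e-06) and held 93.6% ± 0.124 of alpha-tubulin reads per kilobase in the control and 93.8% ± 0.0386 in the knockdown. Tuba1b had a log2 change of 0.09 (edgeR adjusted p = 0.0129, up to 0.113 with a library left out) and Tuba1c one of 0.24 (edgeR adjusted p = 0.00447, up to 0.237). The calls of Tuba1b were lost without control replicate 1 or knockdown replicate 2, and those of Tuba1c without control replicate 2 or knockdown replicate 2. Tuba1a, Tuba1b and Tuba1c share 72.9%, 73.8% and 61.0% of their 50-base words with other genes, so their separate values are uncertain. Their sum was 3405 and 3514 CPM in the control and 3830 and 3937 CPM in the knockdown, a ratio of 1.12. Tuba4a, at under 2 CPM in every library, was not called.

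Gamma-tubulin, which seeds new microtubules at centrosomes, was represented by Tubg1 and Tubg2. Tubg1 had a log2 change of 0.14 (edgeR adjusted p = 0.0193), and the call was lost with any library but knockdown replicate 1 left out (adjusted p up to 0.271). Tubg2 had a log2 change of -0.19 and was not called. Each shares about 14% of its 50-base words with other genes.

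Among the dynein genes, Dynlt3 rose the most. It encodes a Tctex-type light chain that links the motor to cargo. Dynlt3 was 35.6 and 35.1 CPM in the control and 75.5 and 78.2 CPM in the knockdown. The groups were far apart against their spread, with a 2.17-fold rise (log2 change 1.12, SE 0.05, edgeR adjusted p = 7.51e-20). Its relatives are too similar to be told apart with certainty. Dynlt1b shares 83.2% of its words with other genes and had a log2 change of 0.32 (edgeR adjusted p = 0.0145), which was lost with any library but knockdown replicate 1 left out (adjusted p up to 0.117). All 5 Dynlt1 rows summed to 8.34 and 8.54 CPM in the control and 9.77 and 10.7 CPM in the knockdown.

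The cytoplasmic dynein 1 motor changed in some chains and not in others. Dync1i2, the intermediate chain that binds dynactin, was 255 and 250 CPM in the control and 340 and 341 CPM in the knockdown, 1.35-fold higher (log2 change 0.43, SE 0.03, edgeR adjusted p = 2.41e-14). Dync1li2, a light intermediate chain that contacts cargo adaptors, rose from 234 and 230 CPM to 290 and 282 CPM, or 1.23-fold (edgeR adjusted p = 3.02e-10). Dync1h1, the heavy chain with the motor domain, was 894 and 888 CPM in the control and 877 and 839 CPM in the knockdown. Its log2 change was -0.05 (SE 0.03, edgeR adjusted p = 0.118) and it was not called with all libraries, although it was without knockdown replicate 1 (adjusted p = 0.0437). The light chain Dynll2, a dimer shared with many other complexes, was 422 CPM in both control libraries and 466 and 465 CPM in the knockdown, 1.10-fold higher (edgeR adjusted p = 7.44e-05). The roadblock light chain Dynlrb1 had a log2 change of 0.17 (edgeR adjusted p = 0.000123). Dynll1, Dync1li1, Dync1i1, Dynlrb2 and Dynlt1e were not called. Of the ciliary dynein 2 genes, which serve return transport within cilia, the heavy chain Dync2h1 was lower (log2 change -0.14, edgeR adjusted p = 0.00427, and 0.0711 without control replicate 1) and the light intermediate chain Dync2li1 was not called.

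Kinesins changed in both directions, with a median log2 change of -0.06. The clearest rise was in kinesin-2, the motor of transport into cilia and of some axonal cargo. Kif3b, a subunit of the heterotrimeric motor, was 88.0 and 91.1 CPM in the control and 153 and 151 CPM in the knockdown. The rise was 1.70-fold (log2 change 0.76, SE 0.03, edgeR adjusted p = 7.98e-19). Its partner subunits were not called. Kif3a was 174 and 172 CPM in the control and 167 and 161 CPM in the knockdown (edgeR adjusted p = 0.0508), close to the threshold. Kif3c had a log2 change of -0.07, and both were called lower without knockdown replicate 1 (adjusted p = 0.0441 for Kif3a and 0.0109 for Kif3c). Kif17, a homodimeric relative, had a log2 change of -0.33 and was not called. The accessory subunit Kifap3, which is outside the symbol rule, was higher by 0.26 on the log2 scale (edgeR adjusted p = 4.71e-08).

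The strongest decreases among kinesins were those of Kif26b, Kif19a and Kif26a. Kif26b and Kif26a form the kinesin-11 family, whose best studied member, Kif26a, binds microtubules without the usual motor ATPase activity. Kif26b was 10.2 and 9.59 CPM in the control and 3.49 and 3.96 CPM in the knockdown, a 2.66-fold decrease (log2 change -1.41, SE 0.13, edgeR adjusted p = 2.78e-11). Kif26a was 4.34 and 4.07 CPM in the control and 2.06 and 2.31 CPM in the knockdown, 1.93-fold lower (log2 change -0.95, SE 0.18, edgeR adjusted p = 4.17e-05). Both members of the family fell, and the groups overlapped in neither. Both were chosen by their calls in these same libraries, so the lack of overlap is no separate result. Over all genes, both knockdown libraries lay below both controls for 36.2%.

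Kif19a, known as a kinesin-8 that shortens microtubules at the tips of motile cilia, was 18.6 and 16.2 CPM in the control and 8.24 and 8.05 CPM in the knockdown. The decrease was 2.14-fold (log2 change -1.10, SE 0.09, edgeR adjusted p = 8.11e-12). The 6 markers of ciliated ependymal cells summed to 505 and 520 CPM in the control and 488 and 496 CPM in the knockdown. Among them, Dnahc9 and Ccdc39 were lower (Ccdc39 with an adjusted p up to 0.165 when control or knockdown replicate 2 was left out), while Foxj1, Dnahc5, Rsph1 and Tekt1 were not called. Their part in the fall of Kif19a was not tested. The mitotic members of kinesin-8 were Kif18a and Kif18b. Kif18a had a log2 change of 0.43 (edgeR adjusted p = 0.00142), which did not hold without control replicate 2 or knockdown replicate 1 (adjusted p up to 0.0588), and Kif18b was not called. The 6 proliferation markers summed to 255 and 238 CPM in the control and to 316 and 269 CPM in the knockdown, with Pcna and Cdk1 called higher.

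In kinesin-4, Kif21b, a brain motor that limits microtubule growth, was 168 and 162 CPM in the control and 106 and 103 CPM in the knockdown. It was 1.58-fold lower (log2 change -0.66, SE 0.03, edgeR adjusted p = 2.56e-17), and Kif21b and Tppp3 were the members nearest above the 1.5-fold limit. Kif21a had a log2 change of -0.15 (edgeR adjusted p = 0.000474, and 0.0514 without control replicate 2). Kif7 and Kif27, linked to hedgehog signalling and cilia, were not called.

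Kinesin-3 motors carry vesicles and organelles. Kif1b, which carries mitochondria and is needed to place Mbp mRNA in zebrafish oligodendrocytes, was the most abundant kinesin in CPM, with 1272 and 1241 CPM in the control and 1472 and 1455 CPM in the knockdown. It rose 1.16-fold (log2 change 0.22, SE 0.03, edgeR adjusted p = 3.09e-08). Kif1a, the related neuronal motor, was 454 and 450 CPM in the control and 454 and 440 CPM in the knockdown, and these groups overlapped (edgeR adjusted p = 0.693). The endosome motor Kif16b was 1.46-fold lower, just short of the 1.5-fold limit (edgeR adjusted p = 1.37e-06). It was 16.97 and 17.8 CPM in the control and 11.97 and 11.9 CPM in the knockdown. Kif13a, another endosome motor, fell by 0.31 on the log2 scale (edgeR adjusted p = 6.39e-10).

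Kinesin-1, the main anterograde motor, split by gene. Kif5b, the ubiquitous heavy chain, was 424 and 415 CPM in the control and 475 and 464 CPM in the knockdown. It was 1.12-fold higher (log2 change 0.16, SE 0.03, edgeR adjusted p = 1.38e-05). Kif5a, a heavy chain enriched in neurons, fell by 0.31 on the log2 scale (edgeR adjusted p = 0.000882), and Kif5c was not called. The 10 neuron markers summed to 249 and 254 CPM in the control and to 228 and 220 CPM in the knockdown, with Dcx, Elavl3 and Syp called lower and Rbfox3, Syt1 and Elavl4 called higher. Their part in the fall of Kif5a was not tested.

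Tau, encoded by Mapt, was the only structural MAP that the symbol rule reached. Mapt was 108 and 119 CPM in the control and 115 and 111 CPM in the knockdown, so the knockdown values lay within the control range (edgeR adjusted p = 0.946). The count table gives the other classical MAPs under older symbols that begin with Mtap, and these 11 rows were described beside the members after the row names had been seen. Of them 6 were called higher and 3 lower, where 23.5% and 23.3% of all genes were. Mtap6 (now Map6), the stable tubule only protein that protects microtubules from cold, was 58.0 and 59.7 CPM in the control and 89.6 and 90.0 CPM in the knockdown. It was 1.53-fold higher (log2 change 0.61, SE 0.04, edgeR adjusted p = 1.78e-14). Mtap1a, a MAP of mature neurites, was 281 and 276 CPM in the control and 384 and 390 CPM in the knockdown, 1.39-fold higher (edgeR adjusted p = 1.92e-15). Mtap2, Mtap1b, Mtap9 and Mtap4 were called higher with log2 changes of 0.22, 0.12, 0.12 and 0.11. Mtap7, Mtap7d2 and Mtap7d3, of the family that recruits kinesin-1, were called lower with log2 changes of -0.31, -0.55 and -1.29, the last of them at under 2 CPM in every library. Mtap7d1 and Mtap1s were not called. Only 5 of these 9 calls held with each library left out, since Mtap9 lost its call in all 4 fits, Mtap7 and Mtap7d3 in some, and Mtap1b without control replicate 2 (highest adjusted p 0.149, 0.0614, 0.231 and 0.0856).

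Stathmins sequester tubulin dimers. Stmn2, the stathmin of growing axons, was nearly silent, with 4 and 8 reads in the controls against 22 and 39 reads after knockdown, or 0.0797, 0.171, 0.449 and 0.789 CPM. Both knockdown libraries were above both controls. Stmn2 was the only member that reached 10 reads in both libraries of 1 group and not of the other, so its call is given no weight, and it was lost without control replicate 1 or knockdown replicate 2. Stmn1, the general stathmin of dividing and migrating cells, was 31.0 and 29.7 CPM in the control and 27.2 and 26.9 CPM in the knockdown. It was 1.12-fold lower (edgeR adjusted p = 0.0229), and it lost the call whichever library was left out (adjusted p 0.0524 to 0.162) and with DESeq2 (adjusted p = 0.0996). It also shares 36.5% of its words with other genes. Stmn3 was 36.8 and 39.4 CPM in the control and 37.8 and 43.3 CPM in the knockdown (edgeR adjusted p = 0.216), and Stmn4 was 3.35 and 3.27 CPM in the control and 4.43 and 3.86 CPM in the knockdown (edgeR adjusted p = 0.103). Neither was called with all libraries, and Stmn3 was called without knockdown replicate 1 (adjusted p = 0.0149).

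The TPPP family bundles microtubules, and Tppp itself is known from oligodendrocytes. Tppp was 26.6 and 25.5 CPM in the control and 24.6 CPM in both knockdown libraries, a difference that was not called (log2 change -0.08, SE 0.06, edgeR adjusted p = 0.289). Tppp3, a shorter relative, was 30.2 and 32.6 CPM in the control and 47.1 and 51.4 CPM in the knockdown. It rose 1.57-fold (log2 change 0.65, SE 0.06, edgeR adjusted p = 1.33e-11).

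The 12 members that were not tested had at most 10 reads in any library. Of these, 7 had 0 reads everywhere (Dynlt1c, Dynlt1f, Kif12, Kif2b, Kif4b, Tuba3a and Tuba3b), which allows up to 3 reads, or about 0.06 CPM, in a library by counting error alone. Tuba8, Tubb1, Dynlt1a and Tppp2 were among the other 5. Per length, Tuba1a was the highest of all members, at 1789 CPM per kilobase of exon in the control, followed by Tubb2b at 404, Tubb2a at 265 and Tubb5 at 250.

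Other microtubule genes were examined beside the members. Of 75 tested genes from 9 lists outside the symbol rule, 20 were higher and 20 lower, or 26.7% in each direction beside 23.5% and 23.3% of all genes, with a median log2 change of -0.01. With each library left out in turn, 14 of the higher and 12 of the lower calls held. In dynactin, the complex that lets dynein move far, 6 of 9 subunits were higher and 0 lower, all by small amounts. The calls of Dctn1 and Dctn5 were lost with some libraries left out (adjusted p up to 0.187 and 0.200), and the other 4 held. Actr10 rose 1.19-fold (edgeR adjusted p = 4.06e-07) and Dctn6 1.22-fold (edgeR adjusted p = 1.77e-06). Among dynein adaptors, 2 of 8 were higher (Bicd2 and Nde1, of which neither held in every such fit) and 2 lower. Hook1, an adaptor for endosome transport, was 12.9 and 11.04 CPM in the control and 6.73 and 7.66 CPM in the knockdown, 1.66-fold lower (edgeR adjusted p = 8.29e-07), and Hook3 was 1.10-fold lower (edgeR adjusted p = 0.000274). Of 9 kinesin partners and C-kinesins, 2 were higher, Kifap3 among them, and 3 lower, with Kifc3 falling by 0.16 on the log2 scale (edgeR adjusted p = 8.2e-05). The calls of Klc1, Trak1 and Trak2 in this list were lost with some libraries left out.

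Of 16 tubulin-modifying enzymes, 3 were higher and 3 lower (18.8% in each direction), beside 23.5% and 23.3% of all genes. Vash2, which removes the C-terminal tyrosine of alpha-tubulin, was 26.9 and 27.6 CPM in the control and 16.9 and 15.9 CPM in the knockdown, 1.66-fold lower (edgeR adjusted p = 9.73e-11). Its relative Vash1, more abundant at a mean of 223 CPM in the control, was called higher (log2 change 0.14, edgeR adjusted p = 0.000419). The tubulin deacetylase Hdac6 was 1.32-fold higher (edgeR adjusted p = 1.11e-11), at 99.5 CPM in both control libraries and 134 and 129 CPM in the knockdown. Among minus-end and nucleation genes, 1 of 8 was higher (12.5%) and 4 were lower (50%). Camsap1l1 (now Camsap2), which caps free minus ends, fell 1.41-fold from 265 and 256 CPM to 189 and 180 CPM (edgeR adjusted p = 6.3e-15), and Camsap1 fell by 0.23 on the log2 scale (edgeR adjusted p = 5.62e-06). The other calls there, Tubgcp3 and Tubgcp5 lower and Tubgcp4 higher, did not hold in every fit with a library left out.

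End-binding proteins went both ways, with 2 of 8 higher (25%) and 3 lower (37.5%). Over all genes, 23.5% were called higher and 23.3% lower, and the lists below stand beside the same shares. Mapre1 (EB1) was 1.21-fold higher (edgeR adjusted p = 8.89e-10) and its relative Mapre2 (EB2) 1.21-fold lower (edgeR adjusted p = 9.17e-09). Of 7 folding cofactors, 2 were higher, Arl2 (edgeR adjusted p = 8.07e-05) and Tbce (edgeR adjusted p = 0.00204), and 2 lower (Tbcd and Tbcel, neither held in every such fit). Of 7 severing genes, Katnal1 was higher (edgeR adjusted p = 4.04e-05) and Spast lower (edgeR adjusted p = 6.16e-05). In the doublecortin family Dclk1 was 1.19-fold higher (edgeR adjusted p = 5.05e-09), and Dclk2 and Dcx were 1.21-fold and 1.31-fold lower (edgeR adjusted p = 7.29e-09 and 9.26e-09).

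**Figure D4:**
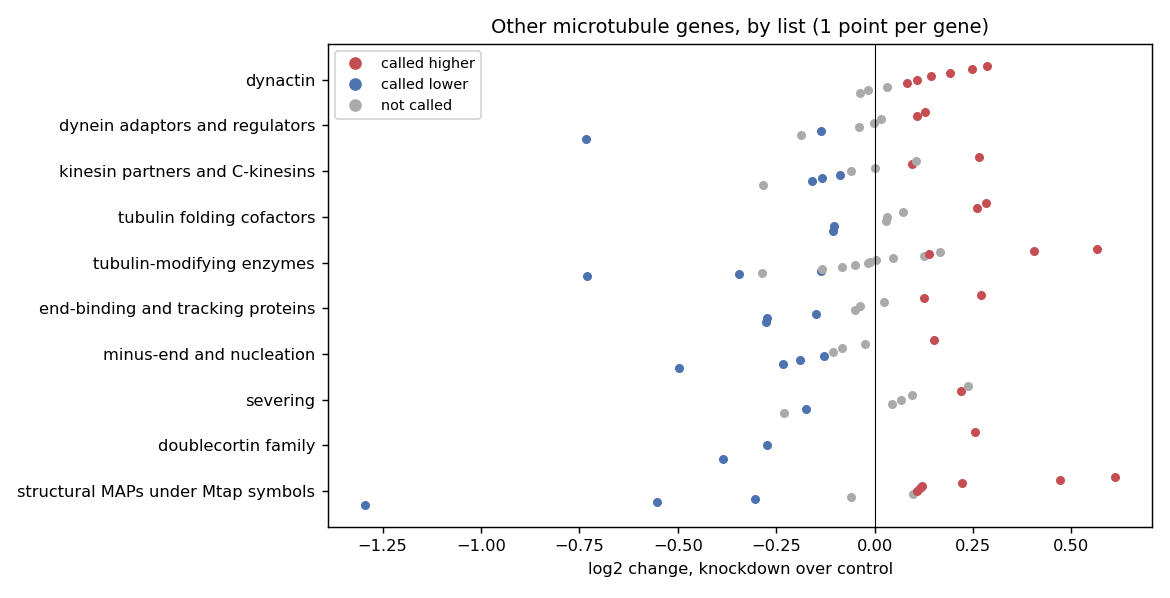
Log2 change of each tested gene in 9 lists of other microtubule genes and of the rows with Mtap symbols (knockdown over control, n = 2 per group, 1 point per gene). Dynactin has 6 points called higher and 0 called lower, while Hook1 and Vash2 lie at -0.73 and Mtap7d3 at -1.29. Over all genes, 23.5% were called higher and 23.3% lower.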

How the data were processed

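RNA-seq was carried out by the study's authors on polyadenylated RNA from 4 libraries (100 ng of total RNA each, paired-end, TruSeq V2, a kit that does not mark strand). The authors deposited raw read counts per gene from HTSeq 0.6.1. Other names in the submitters' processing notes are build mm9, SAMtools 0.1.18, DESeq, Bowtie 0.12.7, Cufflinks and TopHat 1.3.3. The study's supplement describes an iGenomes annotation and a later build for its wider data, so the annotation behind these counts is unsure. No strand setting is given, so reads of overlapping or antisense genes cannot be told apart. Reads outside genes (20.1% to 22.2% of listed reads), reads with more than 1 alignment (10.7% to 11.2%) and ambiguous reads (0.427% to 0.434%) stayed out of library sizes and tests. Deposited tables of the authors' own fold changes, p-values and gene ontology terms were not used.

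The test was edgeR 4.0.16 (R 4.3.3, limma 3.58.1): filterByExpr with a minimum count of 10 and total of 15, TMM, robust quasi-likelihood, knockdown against control with no covariate, and Benjamini-Hochberg adjustment over all 14090 genes. The biological coefficient of variation was 2.95% in common. The fit was also run on simulated data, whose outcome is not reported here and is not used as support for the calls. Means are over 2 libraries. Exon lengths, transcripts and current symbols came from GENCODE M21, with 74 of 75 members matched. Dynlt1e had no match.

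The members and lists were chosen with earlier results of these data known. Some listed genes are not reported here. Named with values in every library were members called at 1.5-fold or more, and in each role group the 3 most abundant and the 4 called with the smallest adjusted p. Kif3a and Kif16b were added for lying near a limit, as were Tubb2a-ps2 and genes given by 1 value, after their values were seen. Vash1 was added later, beside its relative Vash2. Alternatives were DESeq2 size factors, the DESeq2 1.42.0 test, no count filter, each library left out, a replicate block, a 1.2-fold threshold (glmTreat) and no robust fit.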

Additional observations from a re-analysis of the deposited data

Results flagged for a closer look

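The table also lists reads that aligned to several places and were given to no gene. Their share of the listed reads was 10.8% ± 0.131 in the controls and 11.2% ± 0.0698 after knockdown (SD, n = 2), higher in both knockdown libraries than in either control. Such reads bear on the near-identical rows (Tuba1a, Tuba1b, Tuba1c, Tubb2a, Tubb2b, Tubb2c and Dynlt1b), whose part in these reads was not tested.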

How the results depend on the processing

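With 2 libraries per group the values are limited to differences well above the spread within groups. None of the 33 member calls changed sign under any alternative. A test against 1.2-fold in place of no change left 839 genes higher and 964 lower (3309 and 3276 with the plain test), 7 members higher and 6 lower (22 and 11), and 2 related genes higher and 4 lower (20 and 20). Leaving out 1 library removed between 3 and 8 member calls, and 22 calls held in all 4 such fits. Without knockdown replicate 1, 4 calls were gained (Dync1h1, Kif3a, Kif3c and Stmn3). The count of members changed over 2-fold ranged from 3 to 5 in these fits. In them the log2 changes of 11 tested members crossed zero, 0 of them called. Among the members named with values in every library these were 3, ranging from -0.038 to 0.0066 for Kif1a, from -0.074 to 0.068 for Mapt and from -0.011 to 0.19 for Stmn3. DESeq2 lost 3 calls (Dynlt1b, Stmn1 and Tubg1), and DESeq2 size factors added Kif3a. Dropping the count filter or the robust fit changed no member call. Replicate numbers are shared between groups. Over all genes tested, the deviations of same-numbered libraries correlated with r = 0.05, and these libraries were not treated as pairs. That value cannot exclude a replicate effect in particular genes. The summed proliferation markers were higher in replicate 1 of both groups (255 and 316 CPM) than in replicate 2 (238 and 269 CPM). With a replicate block, 22 members were higher and 13 lower, Dynll1 and Kif3a being added, and 3404 of all genes were higher and 3377 lower. Among alternatives chosen after seeing the data, shares computed without dividing by length gave Tubb4 8.29% ± 0.632 in the control and 3.22% ± 0.219 in the knockdown, and shares with Tubb3 in the sum gave 8.07% ± 0.642 and 3.10% ± 0.211.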
